A study of Mus musculus with 53 samples.

Results

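The tumours described here carried the lentiviral vector against Smad4 and grew for 15 weeks in the lungs of mice of 3 genotypes. They were selected by the target label of the deposited list, without use of their size. The 35 mice that received the vector pool held 20436 tumours labelled Smad4 among 335123 listed tumours of all labels, and the whole series lists 409584. KTC mice (n = 10) held 9286 of the Smad4 tumours, KPTC mice (n = 12) held 8471 and KLTC mice (n = 13) held 2679. No Smad4 tumour was listed in the mice studied at 9 weeks. The 91281 inert tumours of the same 35 mice, whose sgRNAs are controls, served as the reference in each mouse.

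The study asked how the loss of single tumour suppressor genes changes the growth of lung adenocarcinoma when other tumour suppressors are present or absent. Virus was given through the trachea, and tumours arose where Cre and Cas9 acted in transduced lung cells. In the usual naming of these strains, T stands for a Cre reporter and C for a Cas9 allele, and all 3 genotypes share these. KPTC mice add an allele from which Cre deletes p53, and KLTC mice one from which Cre deletes Lkb1, while KTC mice have neither. Inert tumours of KPTC and KLTC therefore also carried the p53 or Lkb1 deletion. No source used here gives the age or sex of the mice, or how many sgRNAs were directed against Smad4. A label names the vector of a tumour, and whether Smad4 was cut in each tumour was not analysed here. Marker genes of the labelled lung epithelium were not analysed here either.

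SMAD4 is the shared partner of the receptor-activated SMAD proteins. Ligands of the TGF-beta and BMP families activate receptor kinases, these phosphorylate the receptor SMADs, and the complex with SMAD4 enters the nucleus and regulates transcription. In epithelia TGF-beta signals restrain proliferation, and SMAD4 is lost in many carcinomas, with its best known role in the pancreas and colon. No other gene of this pathway is among the 11 targets of the pool, so the Smad4 tumours are its only members here.

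Each tumour is known by a random barcode of 21 bases, printed as listed, with no strand given in the sources. Capitals mark positions 1, 2, 8, 9, 15 and 16, counted from the first listed base, where the Smad4 barcodes nearly always held the same base (95.6% to 99.7% of tumours). The 15 other positions had no base above 30.1%. The largest Smad4 tumour of each genotype is shown because these 3 barcodes carry the upper end of the size distribution and were also listed in other mice.
KTC replicate 4, 3.89e+06 cells: AAacgtgTTcgtgcAAtaatt
KPTC replicate 12, 8.58e+07 cells: AAttagcTTctgccAAgcagt
KLTC replicate 13, 3.33e+06 cells: AAgcgtcTTcacggAAttctc
The KTC barcode was listed under Smad4 in 20 of the 35 mice, the KPTC barcode in 16 and the KLTC barcode in 13. Outside the mouse of its largest tumour, the KTC barcode reached at most 18531 cells, the KPTC barcode 49538 cells and the KLTC barcode 26929 cells. Each of the 5 largest Smad4 tumours of each genotype had a barcode listed in 5 to 20 mice. Of 17448 distinct Smad4 barcodes, 1633 (9.36%) were listed in more than 1 mouse.

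Listings of one barcode in several mice were frequent in KLTC. In the median mouse, 2.18% of the Smad4 tumours of KTC, 3.88% of KPTC and 30.1% of KLTC had a barcode that was listed at 10 times the size or more in another mouse. The inert tumours had medians of 6.30%, 7.65% and 28.7%. In KLTC, 34.1% of the Smad4 tumours between 500 and 1000 cells had such a match, against 5.04% of those between 10000 and 100000 cells and 0% of the 164 that were larger. By this rule a larger tumour needs a larger listing elsewhere, which alone lowers the percentage. At a fixed size of at least 100000 cells in another mouse, the percentages of these KLTC tumours were 27.4%, 5.04% and 0%. For those between 1000 and 10000 cells it was 29.1%. Whether such listings are separate tumours was not tested, so results are given below with and without them where the call or its size depends on it.

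The list gives the number of tumours in each mouse and the spacing of their sizes, and neither is a direct measure of sequencing depth. The pool mice held 723 to 30646 listed tumours, and the number of Smad4 tumours ranged from 47 to 1600 in KTC (median 921), from 190 to 2004 in KPTC (median 584.5) and from 24 to 886 in KLTC (median 164). Within a mouse the listed sizes were not continuous. Smad4 tumours of a mouse whose barcodes had the same number of G and C bases were compared with the smallest of them. Only those less than 50 steps above it were tested. In 100% of 17667 tumours tested the difference was a whole multiple of a fixed step, to within 0.02 of a step. In the mice with the finest steps few could be tested, 1 in KLTC replicate 1 and 22 in KTC replicate 9. The step ranged from 5.32 to 462 cells in KTC (median 62.1), from 39.2 to 486 cells in KPTC (median 104) and from 2.31 to 302 cells in KLTC (median 77.3). No source used here says what a step counts. The smallest listed tumour lay at 501 to 982 cells, from 2.02 steps in the coarsest libraries to 217 steps in the finest. The median Smad4 tumour lay below 10 steps in 12 of the 35 mice, so small shifts of a median cannot be seen there. A size of 10000 cells corresponded to at least 20.6 steps in every mouse.

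In KTC mice no difference in size between Smad4 and inert tumours passed the test over all mice. The 95th percentile of listed size, which describes the larger tumours, ranged from 2442 to 16958 cells for Smad4 (median 11831) and from 3836 to 17166 cells for inert (median 12147). It was higher for Smad4 than for inert in 3 of 10 mice, and the ranges overlapped almost fully. The log2 ratio of Smad4 to inert in the same mouse was -0.094 ± 0.25 (SD, n = 10), with an adjusted p of 0.510 by the two-sided exact sign-flip permutation test, adjusted with Benjamini-Hochberg over the 11 targets. Without replicate 9, which had the fewest Smad4 tumours, the ratio was -0.032 ± 0.16 (adjusted p = 0.779, exact sign-flip test). At this percentile 27.3% of the targets rose in KTC at the threshold of 0.05. The 75th percentile and the share of at least 2000 cells rose for 36.4% of the targets. Smad4 passed at 0 of 11 size measures in this test, and its unadjusted p was under 0.05 at 0 of them.

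The centre of the KTC distribution showed the least spread. The median Smad4 tumour had 725 to 1432 cells and the median inert tumour 719 to 1432 cells, a log2 ratio of -0.022 ± 0.050 (n = 10, adjusted p = 0.258, exact sign-flip test). In 4 of 10 mice both medians fell on the same whole number of steps. The 90th percentile was higher for Smad4 in 9 of 10 mice, with a log2 ratio of 0.090 ± 0.18 (adjusted p = 0.179, exact sign-flip test). Replicate 7 was the exception, and without it the ratio was 0.14 ± 0.11 and passed (n = 9, adjusted p = 0.0107, exact sign-flip test). At the 99th percentile, in the 9 mice with at least 100 tumours of both labels, the ratio was -0.11 ± 0.61 (adjusted p = 0.809, exact sign-flip test). The means of the percentiles lay on both sides of 0, and over all mice with a value none passed the test at the listed minimum size. The median of tumours of at least 1500 cells alone passed in the other direction, at 0.091 ± 0.11 (n = 9, adjusted p = 0.0143, exact sign-flip test).

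**Figure D1:**
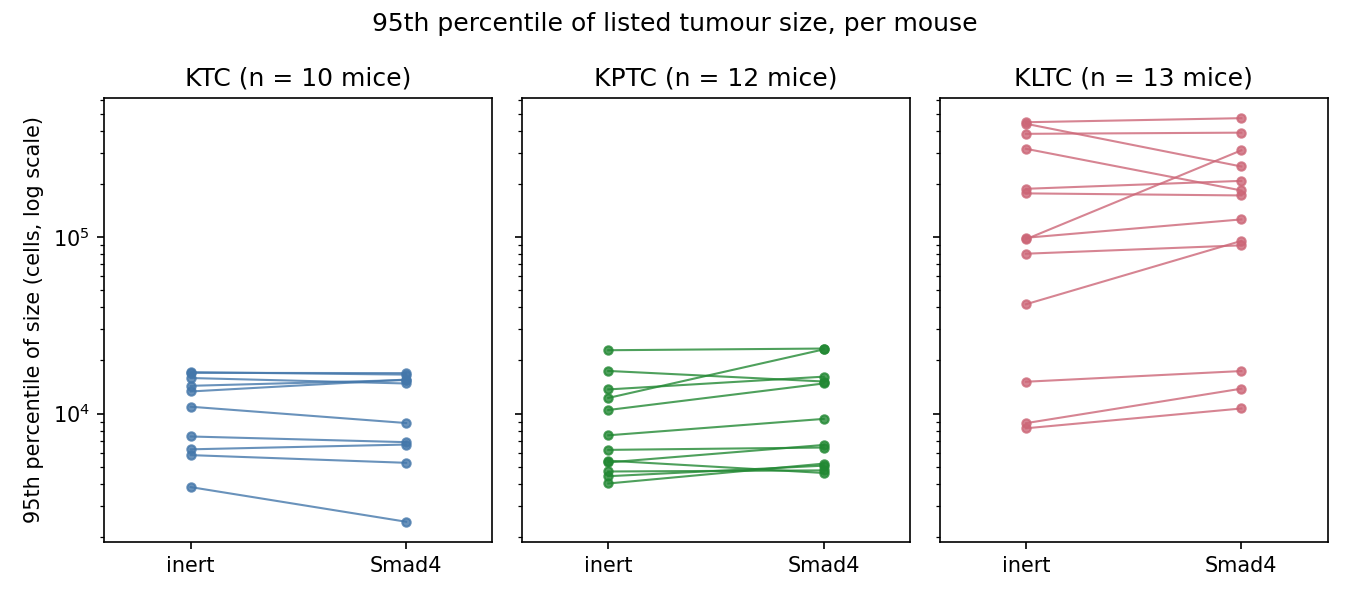
95th percentile of listed tumour size in cells (log scale) for inert and Smad4 tumours, 1 panel per genotype and 1 line per mouse. Smad4 was higher than inert in 3 of 10 KTC mice, 10 of 12 KPTC mice and 10 of 13 KLTC mice, and KLTC mice spread over the widest range of sizes.

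In KPTC mice, whose tumours lack p53, Smad4 tumours were larger than inert tumours by 1.10-fold at the 75th and 1.14-fold at the 90th percentile. The median also passed at 1.04-fold, a call that rests partly on differences below the size step of a mouse. The share of tumours of at least 10000 cells was 1.21-fold higher. The 75th percentile ranged from 1301 to 4419 cells for Smad4 (median 1827) and from 1246 to 4398 cells for inert (median 1682), and Smad4 was higher in 12 of 12 mice. Its log2 ratio was 0.13 ± 0.14 (1.10-fold, adjusted p = 0.00134 by the exact sign-flip test), in a genotype where 54.5% of the targets rose at this percentile. The 90th percentile was higher in 12 of 12 mice, from 2487 to 11218 cells against 2341 to 10732 cells for inert, a log2 ratio of 0.19 ± 0.14 (1.14-fold, adjusted p = 0.00269, exact sign-flip test), where 72.7% of the targets rose. Smad4 passed at 7 of 11 size measures in KPTC, so its rise was one of many among the targets of this genotype.

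The size steps bear on how far down the distribution this difference reached. With sizes rounded down to whole steps, Smad4 lay on a higher step than inert at the 75th percentile in 7 of 12 KPTC mice and on the same step in 5. At the 90th percentile it lay higher in 11 and on the same step in 1. At the median, it lay higher in 3 mice and on the same step in 9. The size of the log2 ratio of the median, 0.063 ± 0.11 (adjusted p = 0.0107, exact sign-flip test, 63.6% of targets raised), thus came from replicates 1, 2 and 5. The ratios of the other mice lay between -0.0018 and 0.0086. The sign-flip test also counts these differences below a step, so its call at the median rests partly on them. The call at the 75th percentile likewise counts the 5 mice on the same step. Replicates 1, 2 and 5 are among the 5 KPTC mice whose names have no letter prefix. In those 5 the ratio of the median was 0.15 ± 0.14 (adjusted p = 0.115), and in the 7 with the prefix IW it was 0.0025 ± 0.0037 (adjusted p = 0.295, exact sign-flip tests). With 5 mice this test cannot give a p below 0.0625, so no value in that group could pass. The 75th percentile had ratios of 0.24 ± 0.14 and 0.054 ± 0.067, and the 90th of 0.15 ± 0.15 and 0.22 ± 0.14, in the same order. No source used here explains the prefixes. Without tumours listed at 10 times their size in another mouse, the 75th percentile (0.096, adjusted p = 0.00403) and the 90th (0.15, adjusted p = 0.00107) passed and the median did not (0.049, adjusted p = 0.347, exact sign-flip tests). Without any barcode listed in another mouse, most of the KPTC calls at percentiles and shares were lost. With a minimum size of 1000 cells the 75th percentile passed (adjusted p = 0.0376), and the 90th and the median did not (adjusted p = 0.125 and 0.103, exact sign-flip tests). With a minimum of 1500 cells none of these percentiles passed. With a minimum size, a percentile describes only the tumours above that minimum and so a higher part of the listed sizes. At least 5000 cells were reached by a median of 7.55% of the Smad4 tumours of a KPTC mouse. The 90th percentile of these tumours alone had the other direction, at -0.23 ± 0.91 in 11 mice (adjusted p = 0.648, exact sign-flip test).

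**Figure D2:**
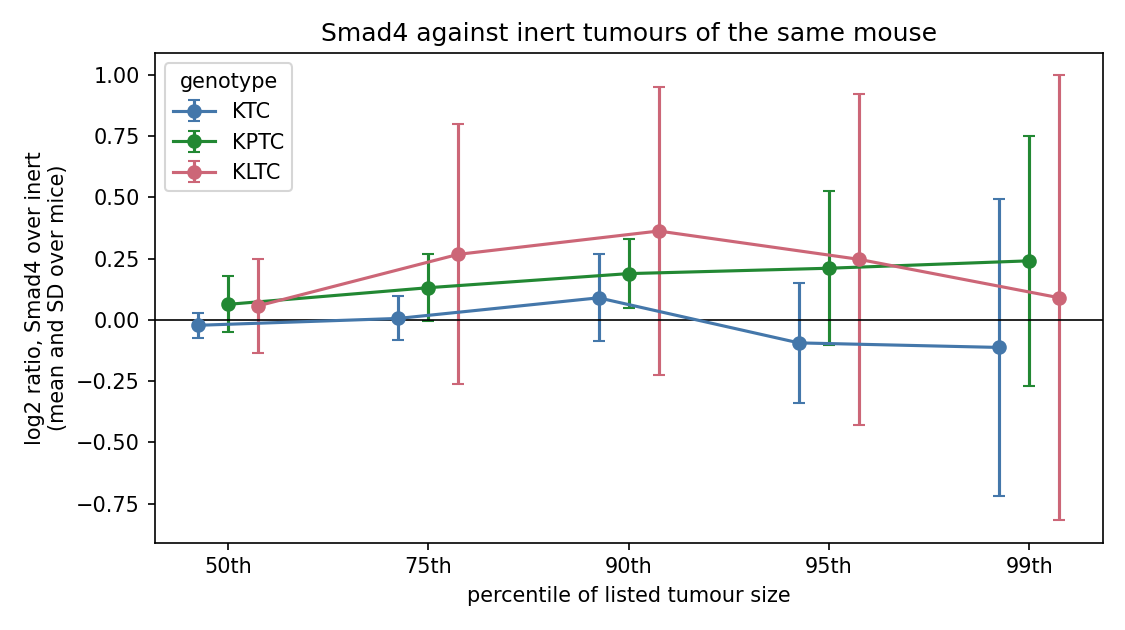
Log2 ratio of Smad4 to inert at the 50th, 75th, 90th, 95th and 99th percentile of listed size; points are means and bars SD over the mice of a genotype. KPTC means lie above 0 at each percentile, from 0.063 to 0.24, KTC means lie between -0.11 and 0.090, and the bars widen towards the largest tumours.

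Among the largest KPTC tumours the spread between mice grew faster than the difference. The 95th percentile ranged from 4612 to 23368 cells for Smad4 (median 7992) and from 4021 to 22861 cells for inert (median 6886). Smad4 was higher in 10 of 12 mice, with replicates 1 and 8 lower. The log2 ratio was 0.21 ± 0.31 (n = 12), and its adjusted p of 0.0506 by the exact sign-flip test missed the threshold, which 54.5% of the targets passed in the upward direction. At the 99th percentile the ratio was 0.24 ± 0.51 (adjusted p = 0.159, exact sign-flip test). Without replicate 8 it was 0.36 ± 0.32 and passed (adjusted p = 0.00859, exact sign-flip test). The 99th percentile of tumours of at least 1000 cells alone, a higher part of the listed sizes, was at -0.53 ± 0.73. It passed in the other direction (adjusted p = 0.0430, exact sign-flip test). Set against tumours of the P53 vector, whose gene these mice already lack, the ratio at the 95th percentile was 0.29 ± 0.38 and passed (adjusted p = 0.00628, exact sign-flip test). With this reference, 3 of the KPTC percentiles and shares that passed against inert no longer did. The P53 tumours themselves were at -0.083 ± 0.16 against inert. Without replicates 1, 2 or 8, each left out in turn, the adjusted p was 0.0215, 0.0470 and 0.0179. The 95th percentile of tumours of at least 5000 cells alone, a small part of the list, had a ratio to inert of -0.74 ± 1.03. This was in the 11 mice with enough tumours (adjusted p = 0.0627, exact sign-flip test).

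The share of tumours of at least 10000 cells gave a second view of the larger tumours. Over all mice, 641 of 9286 Smad4 tumours (6.90%) and 6.65% of the inert tumours of KTC reached this size. In KPTC the shares were 571 of 8471 Smad4 tumours (6.74%) and 5.62% of inert, and in KLTC 402 of 2679 (15.0%) and 13.03%. Because mice with many tumours weigh most in these sums, the tests used 1 value per mouse, the log2 ratio of the shares with 0.5 tumours added to each count. In KPTC the share per mouse ranged from 1.58% to 11.3% for Smad4 (median 4.02%) and from 1.97% to 10.8% for inert (median 3.45%), and Smad4 was higher in 10 of 12 mice. The log2 ratio was 0.27 ± 0.28 (1.21-fold, adjusted p = 0.0172, exact sign-flip test), where 63.6% of the targets rose. Within the 7 mice with the prefix IW the ratio was 0.36 ± 0.25 (adjusted p = 0.0344) and within the 5 without a prefix, too few to pass, 0.15 ± 0.28 (adjusted p = 0.516, exact sign-flip tests).

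This KPTC share depended on which tumours were counted. With a minimum size of 1000 cells the log2 ratio was 0.21 ± 0.37 (adjusted p = 0.0961, exact sign-flip test), and without the largest tumour of each label it was 0.20 ± 0.34 (adjusted p = 0.119). Without tumours listed at 10 times their size in another mouse it was 0.22 and still passed (adjusted p = 0.0345, exact sign-flip test). Of the lower cuts, the share of at least 5000 cells rose with a log2 ratio of 0.15 ± 0.17 (adjusted p = 0.0181, 72.7% of targets raised) and that of at least 2000 cells with 0.11 ± 0.15 (adjusted p = 0.0312, 45.5% of targets raised, exact sign-flip tests). Without tumours listed at 10 times their size elsewhere, these had adjusted p of 0.114 and 0.171. Neither passed with a minimum size of 1000 cells. The share of at least 100000 cells had a ratio of 0.0010 ± 1.61, with counts of 0 to 21 Smad4 tumours per mouse. Without any barcode listed in another mouse, this share did not pass in KPTC. It passed under that filter in KTC (0.94 ± 0.78, adjusted p = 0.00430) and in KLTC (1.35 ± 0.77, adjusted p = 0.00537, exact sign-flip tests).

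**Figure D3:**
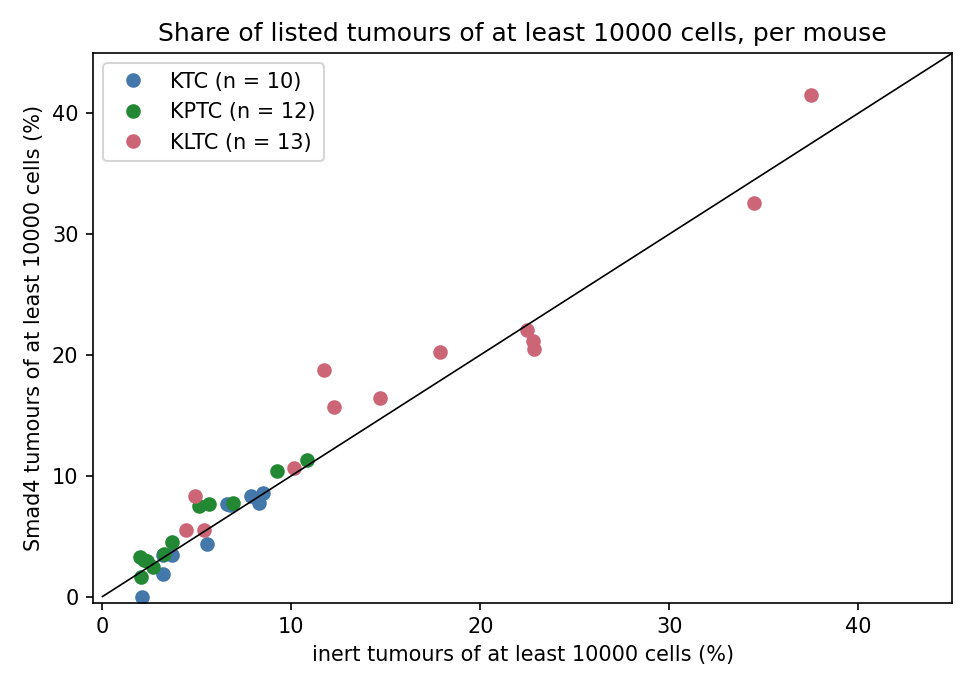
Percentage of listed tumours of at least 10000 cells, Smad4 against inert, 1 point per mouse and 1 colour per genotype, with the line of equal shares. Points lie above the line in 5 of 10 KTC mice, 10 of 12 KPTC mice and 9 of 13 KLTC mice, and the KLTC mice reach 41.5%.

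In KTC the share of at least 10000 cells ranged from 0% to 8.56% for Smad4 (median 5.95%) and from 2.07% to 8.51% for inert (median 6.08%). Replicate 9 had none among 47 Smad4 tumours, a number that allows a share of up to 6.38% (3 counts of the total, counting error only). The log2 ratio was -0.15 ± 0.40, with Smad4 higher in 5 of 10 mice (adjusted p = 0.396, exact sign-flip test). Without replicate 9, whose ratio rests on the 0.5 tumours added to its count of 0, it was -0.050 ± 0.26, and without replicate 3 it was -0.10 ± 0.39 (adjusted p = 0.713 and 0.788, exact sign-flip tests). At this cut 27.3% of the targets rose in KTC. The 3 mice with the fewest Smad4 tumours, replicates 9, 10 and 3, had the 3 lowest ratios, at -1.06, -0.29 and -0.61.

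In KLTC mice, whose tumours lack Lkb1, the means for Smad4 lay above inert but the mice differed widely. The 95th percentile ranged from 10692 to 471350 cells for Smad4 (median 172077) and from 8260 to 447024 cells for inert (median 99086). Smad4 was higher in 10 of 13 mice, with a log2 ratio of 0.25 ± 0.67 (adjusted p = 0.487, exact sign-flip test, 9.09% of targets raised). Replicate 4 stood highest at 1.67 and replicate 7 lowest at -0.80, and without replicate 4 the ratio was 0.13 ± 0.54 (adjusted p = 0.608, exact sign-flip test). The 75th percentile had a ratio of 0.27 ± 0.53 (adjusted p = 0.430) and the 90th of 0.36 ± 0.59 (unadjusted p = 0.0435, adjusted p = 0.239, exact sign-flip tests).

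For the share of at least 10000 cells in KLTC the range was 5.52% to 41.5% for Smad4 (median 18.8%) and 4.44% to 37.5% for inert (median 14.7%). The log2 ratio was 0.21 ± 0.33, with Smad4 higher in 9 of 13 mice, and it did not pass (unadjusted p = 0.0222, adjusted p = 0.0815, exact sign-flip test), where 0% of the targets passed. Smad4 passed at 0 of 11 size measures in KLTC, and its unadjusted p was under 0.05 at 3. Without tumours listed at 10 times their size in another mouse, the ratio was 0.27 ± 0.32 and passed (adjusted p = 0.0114), and without any barcode listed in another mouse it was 0.59 ± 0.69 (adjusted p = 0.00806, exact sign-flip tests). With a minimum of 5000 cells it was -0.0014 ± 0.15 (adjusted p = 0.981, exact sign-flip test). The 7 mice with the prefix IW had 0.33 ± 0.38 and the 6 with the prefix ZR 0.073 ± 0.20 (adjusted p of 0.0859 and 0.884, exact sign-flip tests). Inert tumours merge several vectors under 1 label and lost more tumours to the second filter than Smad4 did, a median of 70.3% against 52.8% per KLTC mouse.

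Between genotypes, the effect of Smad4 on the share of at least 10000 cells was higher in KPTC than in KTC. The difference of the mean log2 ratios was 0.42 ± 0.15 (SE, n = 12 and 10, 1.34-fold), with an adjusted p of 0.0394 by the two-sided permutation test of mouse labels over the 11 targets. At this measure 18.2% of the targets were higher in KPTC, the other being Rb1, a brake on the cell cycle, with a difference of 0.53. Within mice of the prefix IW, the one prefix that both genotypes have, the difference was 0.38 ± 0.13 (n = 7 and 8, adjusted p = 0.0308, exact permutation test). Without tumours listed at 10 times their size in another mouse, the difference was 0.42 ± 0.16 and did not pass (adjusted p = 0.0607, permutation test), and without any barcode listed in another mouse it was 0.13 ± 0.30 (adjusted p = 0.887). It did not pass with a minimum of 1000 cells (0.37, adjusted p = 0.216, permutation test) or adjusted over all targets and measures together (adjusted p = 0.0865). It was also lost in mice with at least 100 tumours of both labels (0.32, adjusted p = 0.0813), with no pseudocount (0.32, adjusted p = 0.119) and without the largest tumour of each label (0.39, adjusted p = 0.0746, permutation tests). The adjusted p was also above the threshold without KTC replicate 9 (0.32, adjusted p = 0.0813), without KTC replicates 3, 4 or 10, and without KPTC replicates 3, 5, 7, 8, 9 or 10, each left out in turn (adjusted p up to 0.0813, permutation tests).

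At the 95th percentile the difference between KPTC and KTC was 0.30 ± 0.12 (SE), with an adjusted p of 0.0523 by the permutation test, while 0% of the targets were called higher in KPTC. Smad4 had rank 2 of the 11 targets in this difference, between Rb1 (0.53) and ATM (0.25), a kinase of the DNA damage response, with Lkb1 lowest at -1.07. At the 75th percentile the difference was 0.13 ± 0.049 (adjusted p = 0.118) and at the 99th 0.35 ± 0.25 (adjusted p = 0.311, permutation tests). The first of these passed without KTC replicate 10 (0.15, adjusted p = 0.0293) and within mice of the prefix IW (0.083, adjusted p = 0.00684, permutation tests). With a minimum of 5000 cells the difference at the 95th percentile was -0.75 ± 0.35 (adjusted p = 0.164, permutation test).

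KLTC mice spread more than KPTC mice at the 95th percentile (SD of 0.67 and 0.31) and in the share of at least 10000 cells (0.33 and 0.28). Against KTC, the share of at least 10000 cells was higher by 0.36 ± 0.16 (SE, adjusted p = 0.0780) and the 95th percentile by 0.34 ± 0.20 (adjusted p = 0.324, permutation tests), and neither passed. The first of these was the largest difference among the 11 targets, next to APC, an inhibitor of Wnt signalling, at 0.30 and with Setd2 lowest at -1.28. Without tumours listed at 10 times their size in another mouse, this difference in share was 0.47 ± 0.16 and passed (adjusted p = 0.0102, permutation test). Against KPTC, the differences of KLTC were -0.061 ± 0.12 for the share (adjusted p = 0.773) and 0.036 ± 0.21 for the 95th percentile (adjusted p = 0.870, permutation tests). The latter was 0.98 ± 0.42 with a minimum of 5000 cells (n = 10 and 11, unadjusted p = 0.0298, adjusted p = 0.1497, permutation test). These 3 comparisons share their mice in pairs.

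**Figure D4:**
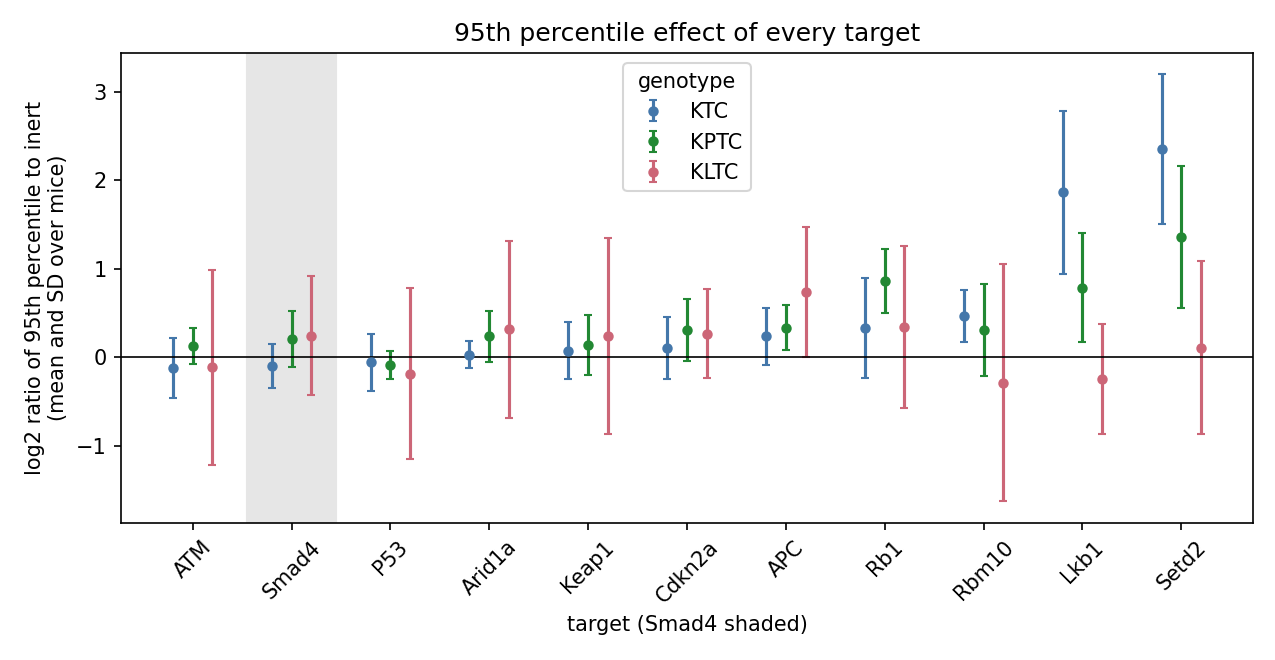
Log2 ratio of the 95th percentile to inert for each of the 11 targets; points are means and bars SD over the mice of a genotype, and Smad4 is shaded. Smad4 lies at -0.094, 0.21 and 0.25 in KTC, KPTC and KLTC, while Setd2 reaches 2.35 in KTC.

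Among the 11 targets Smad4 stood lower at the 95th percentile in KTC and KPTC than in KLTC. In KTC its mean at the 95th percentile had rank 10, between P53 at -0.054 ± 0.32 and ATM at -0.12 ± 0.34, the lowest, and these neighbours did not differ beyond their spread. The highest was Setd2, a histone methyltransferase, at 2.35 ± 0.84. In KPTC Smad4 had rank 8, between Arid1a, part of the SWI/SNF chromatin remodeller, at 0.24 ± 0.28 and Keap1, which holds the NRF2 stress response in check, at 0.14 ± 0.34. Setd2 was again highest (1.36 ± 0.80) and P53 lowest. In KLTC Smad4 had rank 5, between Cdkn2a, whose products inhibit cell cycle kinases and MDM2, at 0.27 ± 0.50 and Keap1 at 0.24 ± 1.10. APC was highest (0.74 ± 0.74), Rbm10, a splicing regulator, lowest (-0.29 ± 1.34), and the control vector against Lkb1 was at -0.24 ± 0.62.

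Across the 3 genotypes the targets nearest to Smad4 in this measure were Arid1a and Keap1. The mean absolute difference of their 3 log2 ratios from those of Smad4 was 0.074 and 0.085. Arid1a had 0.029, 0.24 and 0.32 in KTC, KPTC and KLTC, and Keap1 0.077, 0.14 and 0.24. All 3 targets were set against the same inert tumours, so their values are not independent.

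No difference between genotypes in the number of Smad4 tumours relative to inert tumours passed the test. For each inert tumour there were 0.0975 to 0.253 Smad4 tumours in KTC mice (median 0.226), 0.147 to 0.245 in KPTC mice (median 0.219) and 0.0836 to 0.272 in KLTC mice (median 0.229). The level of this ratio also depends on how much of each vector the virus held, which was not analysed here, so only genotypes were compared. The log2 differences were -0.033 ± 0.14 (SE) for KPTC against KTC, 0.0090 ± 0.17 for KLTC against KTC and 0.042 ± 0.13 for KLTC against KPTC, with adjusted p of 0.930, 0.997 and 0.964 by permutation tests. In the order of the differences between KPTC and KTC, Smad4 lay between Lkb1 (-0.013) and Setd2 (-0.11), with Cdkn2a highest (0.097) and P53 lowest (-0.31).

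A low mouse stood apart in KTC and in KLTC. KTC replicate 9 had 47 Smad4 tumours of 1271 listed and KLTC replicate 1 had 24 of 745, ratios of 0.0975 and 0.0836. Inert tumours made up 37.9% and 38.5% of the listed tumours there, against medians of 26.6% and 26.3%. These libraries also had the finest size steps of their genotypes, 5.32 and 2.31 cells. Without KTC replicate 9 the difference in number between KLTC and KTC was -0.11 ± 0.12 (adjusted p = 0.816, permutation test).

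**Figure D5:**
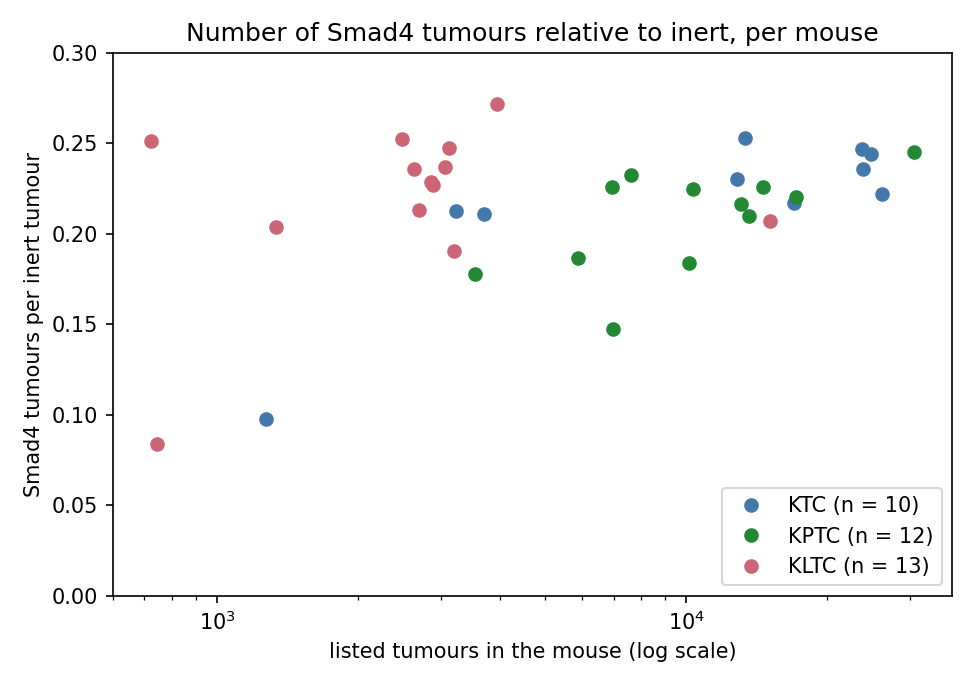
Smad4 tumours per inert tumour against the number of listed tumours in the mouse (log scale), 1 point per mouse and 1 colour per genotype. The lowest points are KLTC replicate 1 (0.0836), KTC replicate 9 (0.0975) and KPTC replicate 9 (0.147), and the others lie between 0.178 and 0.272.

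Smad4 tumours held 1.69% to 8.002% of the listed cells in KTC mice (median 4.11%), 0.664% to 19.9% in KPTC mice (median 4.37%) and 1.99% to 11.6% in KLTC mice (median 5.85%). They made up 6.20%, 6.02% and 5.99% of the listed tumours of these genotypes. The share of cells was above the share of tumours in 1 of 10 KTC mice, 5 of 12 KPTC mice and 6 of 13 KLTC mice. In the median mouse the largest Smad4 tumour held 10.9% (KTC), 32.7% (KPTC) and 20.7% (KLTC) of all Smad4 cells.

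KPTC replicate 12 was the extreme case. Its tumour of 8.58e+07 cells held 89.4% of the Smad4 cells of that mouse, and Smad4 tumours there held 19.9% of all listed cells. The log2 ratio of the mean Smad4 size to the mean inert size was 3.15 in this mouse and 0.047 ± 1.36 over the 12 KPTC mice (adjusted p = 0.910, exact sign-flip test, 0% of targets raised). It was -0.23 ± 0.99 without this mouse and -0.29 ± 0.52 without the largest tumour of each label (adjusted p = 0.608 and 0.124, exact sign-flip tests). In KTC the ratio of mean sizes was -0.050 ± 0.66 (adjusted p = 0.832, 18.2% of targets raised) and in KLTC 0.16 ± 0.62 (adjusted p = 0.722, 9.09% of targets raised, exact sign-flip tests).

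Smad4 tumours were counted among the 10 largest tumours of each mouse. They took 2 of 100 such places in KTC, both in 1 mouse, 6 of 120 in KPTC, in 5 mice, and 15 of 130 in KLTC, in 9 mice. These are 2%, 5% and 11.5% of the places, against the 6.20%, 6.02% and 5.99% of listed tumours. Inert tumours, with 26.7%, 27.8% and 27.2% of the listed tumours, took 9.0%, 20.8% and 25.4% of the places. The places taken by other targets differ between genotypes, and these counts were not tested. The largest Smad4 tumour exceeded the largest inert tumour in 3 mice of each genotype.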

How the data were processed

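Barcodes were amplified by PCR from DNA of whole lungs and sequenced as amplicons, 1 library per mouse, per the labels. The authors deposited 1 table with the absolute number of cells of each tumour by mouse, target and barcode; no source used here says how reads were grouped, scaled to cells or corrected for PCR bias. All listed sizes were above 500 cells. Read totals were not analysed here, so sequencing depth is not given. Listed tumours and size steps describe each library instead, and errors are SD or SE over mice.

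From these values, percentiles of size, shares above fixed sizes, mean size and number were computed for each target in each mouse and set against all inert tumours of that mouse as log2 ratios. A percentile needed 10 tumours of both labels (50th to 90th), 20 (95th) or 100 (99th). Means over mice were tested with two-sided exact sign-flip tests and differences between genotypes by permuting mouse labels (100000 resamples, exact where fewer relabellings exist), adjusted with Benjamini-Hochberg over the 11 targets at 0.05. The smallest sign-flip p is 0.00195 in KTC, 0.000488 in KPTC and 0.000244 in KLTC. The labels describe each sample as its own mouse. Python 3.11.15, numpy 2.4.6, pandas 2.3.3 and scipy 1.17.1 were used, and the tests were tested on simulated data.

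Besides Smad4, the targets named are, for each main comparison, its neighbours in the order of the means, the highest and the lowest, the 2 nearest over the 3 genotypes at the 95th percentile, and the controls P53 in KPTC and Lkb1 in KLTC. The members, lists and tests were chosen with earlier results of these data known. Each result was recomputed with other minimum sizes, references, filters, mice and adjustments. The joint 5000-cell and barcode filter, the adjustment over all measures together and the size steps were added after the data were seen.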

Additional observations from a re-analysis of the deposited data

Results flagged for a closer look

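Smad4 measures with 1 value per mouse were examined for a mouse far from its group where the group had at most 10 values. These were 12 groups in all, the measures of KTC and the 99th percentile of KLTC, and chance alone marks about 1 group in 20. KPTC and the other KLTC measures had more mice and were not examined. The mice that stood apart were all of KTC. Replicate 9 stood apart in number, at a log2 ratio to inert of -3.36 with the next mouse at -2.24. It also stood apart in the share of at least 2000 cells, at 0.35 with the next at 0.11, in a library of 47 Smad4 tumours. Replicate 10 was high at the 75th percentile, at 0.24 with the next mouse at 0.056. Replicate 7 was low at the 90th percentile, at -0.32 with the next at 0.0071. Replicate 3 was low at the 99th percentile, at -1.48 with the next at -0.49.

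The effect of Smad4 differed between KPTC and KTC in the share of at least 10000 cells, by 0.42 on the log2 scale, and in the log-normal mean size, by 0.15 (adjusted p = 0.0394 and 0.0191, permutation tests). At the log-normal mean 27.3% of the targets were higher in KPTC, and Smad4 had rank 2 of 11.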

How the results depend on the processing

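Values are mean log2 ratios to inert or their differences, and the cause of each change below was not tested. With a minimum size, percentiles, means and shares describe only the tumours above it, so they cover a higher part of the listed sizes. Adjusting over all genotypes or comparisons changed no call. With a minimum of 1000 cells, the share of at least 10000 cells was 0.21 in KPTC and 0.37 for KPTC against KTC, neither past the threshold. The KPTC mean size was -0.032, the number for KPTC against KTC 0.028 and the 95th percentile for KLTC against KPTC -0.064. With a minimum of 1500 cells these shares were 0.17 and 0.20, the mean size 0.025 in KTC, -0.088 in KPTC and -0.11 for KPTC against KTC, and the 95th percentile for KLTC against KPTC -0.015. With a minimum of 5000 cells the 95th percentile was 0.0053 in KTC, -0.74 in KPTC, -0.75 for KPTC against KTC and 0.98 for KLTC against KPTC, and the 90th in KPTC -0.23. The share of at least 10000 cells was 0.13 in KPTC, -0.0014 in KLTC and 0.29 for KPTC against KTC, and the mean size -0.38 in KPTC and -0.28 for KPTC against KTC. With matched barcodes left out as well, the 95th percentile was 0.025 in KTC, -0.74 in KPTC and -0.77 for KPTC against KTC, and the 90th in KPTC -0.26. The share was then 0.13 in KPTC and 0.29 for KPTC against KTC. The mean size was -0.38 in KPTC and -0.28 for KPTC against KTC, and the number for KLTC against KTC was -0.0083.

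Without the largest tumours the share of at least 10000 cells was 0.20 in KPTC and 0.39 for KPTC against KTC, and neither passed (adjusted p = 0.119 and 0.0746). The mean size was -0.29 in KPTC, -0.015 in KLTC and -0.12 for KPTC against KTC, and the 95th percentile for KLTC against KPTC -0.14. Without tumours listed 10 times larger elsewhere the share was 0.27 in KLTC and 0.47 for KLTC against KTC, both now past the threshold, 0.42 for KPTC against KTC, no longer past it, and 0.056 for KLTC against KPTC. The number was -0.11 for KLTC against KTC and -0.069 for KLTC against KPTC. Without any shared barcode the share was 0.053 in KTC, 0.19 in KPTC, 0.59 in KLTC, 0.13 for KPTC against KTC and 0.40 for KLTC against KPTC, and the number was -0.20 for KLTC against KTC and -0.13 for KLTC against KPTC. Under this filter 6 calls were lost, that of the share for KPTC against KTC and others at KPTC percentiles and shares. With at least 100 tumours per mouse, the share for KPTC against KTC was 0.32 and the KTC mean size 0.029, and with no pseudocount that share was 0.32, so that its call was lost under both. Adjusted over targets and measures together, its 0.42 did not pass. Against the control sgRNA the KPTC 95th percentile was 0.29, and the log-normal mean in its place was 0.14 in KPTC and 0.15 for KPTC against KTC, all past the threshold. The control sgRNA as reference also ended 3 calls of KPTC percentiles or shares. For the other measures without a call, 12 of 1090 recomputed values passed.

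In mice of the prefix IW the KTC 95th percentile was 0.0022, the KTC mean size 0.012 and the number -0.30 for KLTC against KTC and -0.12 for KLTC against KPTC. In mice of the prefix ZR the KLTC 95th percentile was -0.070, and in mice with no prefix KPTC had a share of 0.15 and a mean size of -0.17. Each prefix group of fewer than 3 mice was left out.

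Leaving out each mouse in turn, the mean size ran from -0.19 to 0.082 in KTC, from -0.23 to 0.20 in KPTC, from -0.18 to 0.25 for KPTC against KTC and from -0.042 to 0.40 for KLTC against KPTC. The 95th percentile ran from -0.13 to -0.032 in KTC, from 0.15 to 0.25 in KPTC, from 0.13 to 0.33 in KLTC, from 0.24 to 0.35 for KPTC against KTC and from -0.083 to 0.12 for KLTC against KPTC. The share of at least 10000 cells ran from -0.19 to -0.050 in KTC, from 0.32 to 0.47 for KPTC against KTC and from 0.26 to 0.40 for KLTC against KTC. The number ran from -0.16 to 0.011 for KPTC against KTC, from -0.11 to 0.12 for KLTC against KTC and from -0.0021 to 0.15 for KLTC against KPTC. Without a KPTC mouse the share of at least 2000 cells in KPTC ran from 0.080 to 0.13 (adjusted p up to 0.0623), and replicates 1, 2, 3, 5, 10 and 11 each ended its call. Tumour number and size steps limit the precision. Smad4 and inert tumours were paired within each mouse, while mice of different genotypes are separate animals and were not paired.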
